A study of Homo sapiens with 6 samples.

Results

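The genes described here are the 54 genes of the DNA replication machinery: the factors that license and fire replication origins, the helicase, the polymerases, the sliding clamp and its loader, and the proteins that guard the fork and rebuild chromatin behind it. They were taken by symbol from the deposited expression table, in which all 54 were found among 26228 rows. The 6 libraries hold RNA of AsPC-1, a long-established line from a human pancreatic adenocarcinoma, which was grown in RPMI with fetal bovine serum (10%), HEPES and pyruvate. In 3 libraries, vehicle 1 to 3, the cells had received vehicle. In the other 3, DON 1 to 3, they had received DON, which is 6-diazo-5-oxo-L-norleucine. DON is a glutamine analog that blocks enzymes which use glutamine. Both groups were held without serum during the 24 h of treatment, so the vehicle group shares the serum withdrawal. The dose of DON is not given in the sources used here, all libraries come from this 1 line, and no label says whether the replicates were separate cultures. The p-values therefore measure the spread between these libraries, which may be technical.

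Replication starts at origins that are marked by the origin recognition complex (ORC). In G1 phase CDC6 and CDT1 load the ring of MCM2 to MCM7 there, a step called licensing, which geminin (GMNN) blocks later in the cycle by binding CDT1. At S phase entry the kinase CDC7 with its activator DBF4, together with cyclin-dependent kinases, adds CDC45 and the GINS complex to the ring, which gives the active helicase known as CMG. Many of these genes are targets of E2F transcription factors, which cyclin-dependent kinases release from RB family proteins late in G1. DNA synthesis also needs dNTPs, whose purine and pyrimidine rings take nitrogen from glutamine.

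Most replication genes had less RNA in DON. Levels are in FPKM, fragments scaled to transcript length and to the mapped total of the library. Fold changes were fitted with limma on log2(FPKM + 1), and a gene was called at a Benjamini-Hochberg adjusted p under 0.05 over all 11471 tested genes. Of the 54 members, which all passed the filter of 1 FPKM in 3 libraries, 32 were called lower, 4 were called higher and 18 were not called. CLSPN and MCM10, both called lower, were under 1 FPKM in every DON library and passed the filter through the vehicle libraries alone. Over all tested genes 20.6% were called lower, 18.3% higher and 38.9% in either direction. The median log2 fold change was -0.56 for the members and -0.01 for all tested genes. The library medians of the members, taken as deviations from each gene's mean, were 0.28, 0.27 and 0.21 in vehicle and -0.27, -0.26 and -0.31 in DON. In 34 of the 54 members every DON library was below every vehicle library, as it was in 26.5% of all tested genes. In bulk RNA, fewer cells in S phase and less RNA per cell cannot be told apart. Without DON replicate 2 or DON replicate 3 the number called higher was 2. With no filter on low values, 12 calls were lost (adjusted p of 0.0512 to 0.162), those of ORC5, ORC6, MCM5, POLA1, POLD1, POLE2, RFC3, RFC5, LIG1, WDHD1, CHAF1A and CHAF1B.

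**Figure D1:**
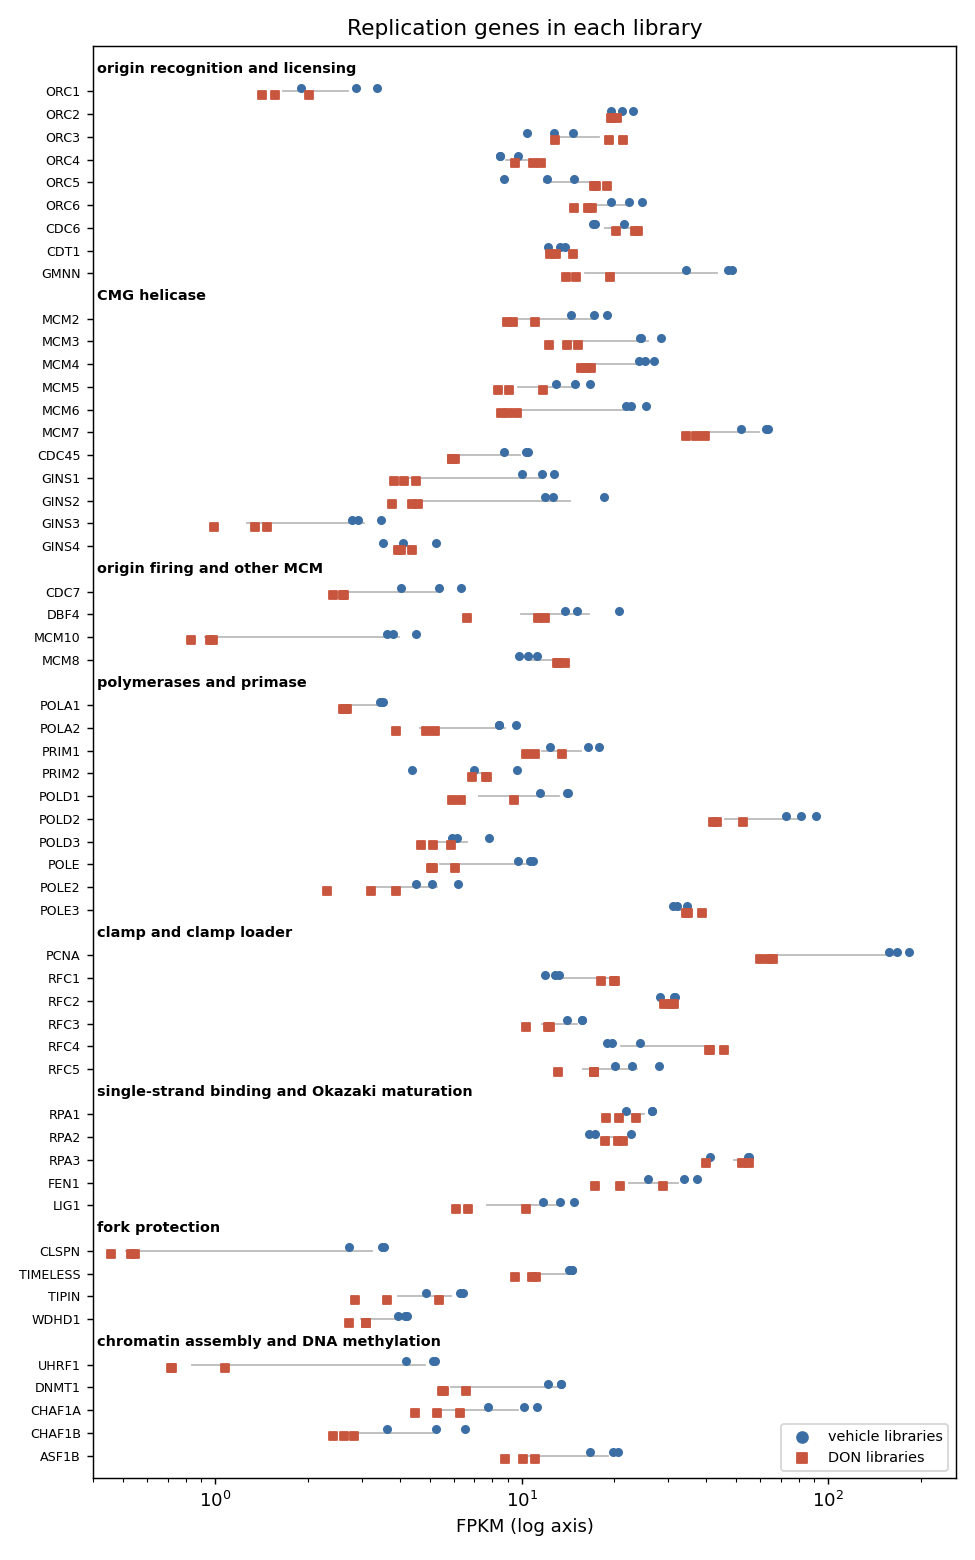
FPKM (log axis) of the 54 replication genes in 3 vehicle libraries (blue circles) and 3 DON libraries (red squares), by functional group, with a grey line between the group means. PCNA has the highest level in both groups, and the widest gaps are those of CLSPN, UHRF1 and MCM10.

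The functional groups differed in how many members were called lower, where the share over all tested genes was 20.6%. Lower calls were made for 10 of 11 CMG helicase genes and 5 of 5 chromatin genes, but for 2 of 9 genes of origin recognition and licensing and 1 of 5 genes of single-strand binding and Okazaki fragment maturation. Between these stood the polymerases and primase (6 of 10), fork protection (3 of 4), the clamp and its loader (3 of 6) and the group of CDC7, DBF4, MCM10 and MCM8 (2 of 4). Median log2 fold changes ran from 0.02 for licensing to -0.73 for the helicase and -0.87 for the chromatin genes. The counts for licensing and for single-strand binding lie near the share over all tested genes. No test between the groups was made.

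**Figure D2:**
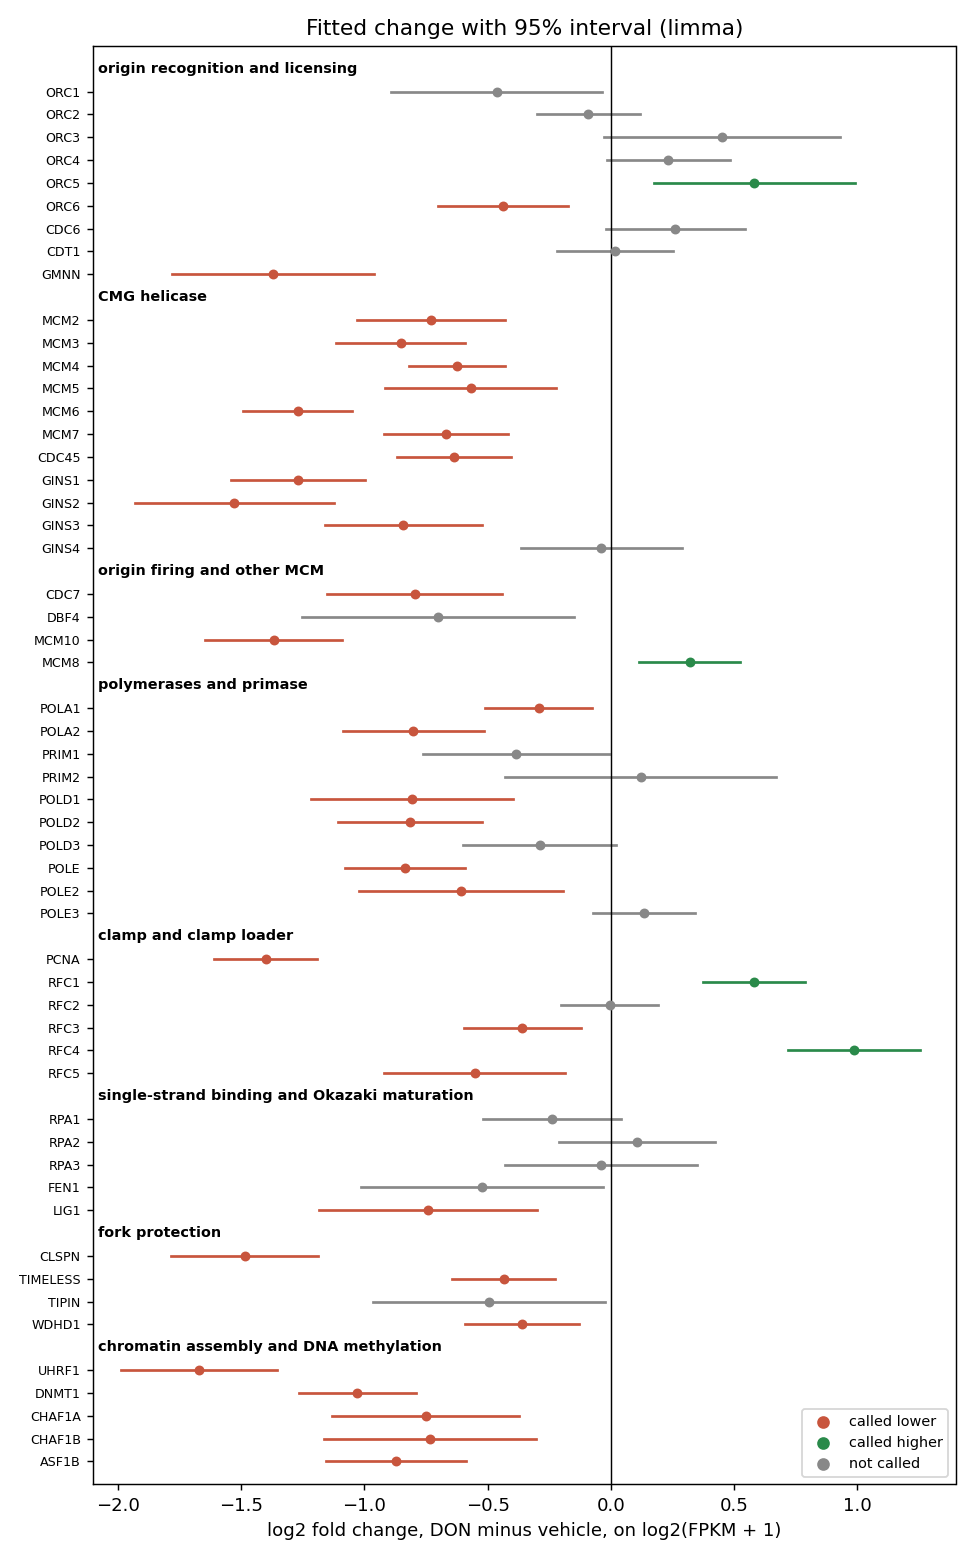
Fitted log2 fold change (DON minus vehicle) of each replication gene with its 95% interval from limma, coloured by call. Most intervals of the helicase and chromatin groups lie wholly below 0, whereas RFC4, RFC1, ORC5 and MCM8 lie above it.

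The promoters of the members were searched for the letters of the E2F site. The RefSeq promoter table (GRCh38.p14) gave 300 bases for 48 members, from 250 before to 50 after the first listed start. It was matched by symbol, and MCM4, MCM5, GINS4, POLD3, RPA2 and RPA3 were not matched. The letters TTTCCCGC, TTTCGCGC, TTTGCCGC or TTTGGCGC, read on either strand, were found in 17 of the 30 promoters of genes called lower (56.7%). They were found in 3 of 14 promoters of genes not called (21.4%) and in 1 of 4 of those called higher, that of MCM8. Of 8647 tested genes with a promoter 5.6% held them, and of all 27305 promoters 3.3%. With every listed start counted, the shares were 63.3% of the genes called lower, 28.6% of those not called and 6.8% of the tested genes. In the CMG helicase group 7 of 8 promoters held a match. The counts were 4 of 9 for polymerases and primase, 2 of 5 for the chromatin genes and 3 of 9 for licensing. They were 2 of 6 for the clamp and its loader and 1 of 3 for single-strand binding and Okazaki fragment maturation. Fork protection and the group of CDC7, DBF4, MCM10 and MCM8 each had 1 of 4.

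The stretches below show these letters in capitals in 7 genes called lower and in CDT1, which was not called. They lie at chr6:52284883-52284942 (MCM3, minus strand), chr2:135876496-135876555 (MCM6, minus), chr16:85688967-85688996 (GINS2, minus), chr11:65261898-65261927 (POLA2, plus), chr20:5126648-5126707 (PCNA, minus), chr13:33818083-33818112 (RFC3, plus), chr19:4909471-4909500 (UHRF1, plus) and chr16:88803743-88803772 (CDT1, plus), all upstream of the first listed start. Each is written 5′ to 3′ on the strand of its gene.
MCM3: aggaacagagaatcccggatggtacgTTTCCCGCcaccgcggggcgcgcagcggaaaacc
MCM6: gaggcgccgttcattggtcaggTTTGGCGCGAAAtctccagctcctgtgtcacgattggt
GINS2: ctctcgccgtgGCGGGAAAacggcggccgc
POLA2: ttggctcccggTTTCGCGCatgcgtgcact
PCNA: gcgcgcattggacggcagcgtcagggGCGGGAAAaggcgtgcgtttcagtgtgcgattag
RFC3: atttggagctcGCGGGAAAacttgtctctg
UHRF1: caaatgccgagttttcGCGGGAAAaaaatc
CDT1: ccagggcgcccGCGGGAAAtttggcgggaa
In MCM6 the capitals are 2 matches on opposite strands that overlap. In GINS2, PCNA, RFC3, UHRF1 and CDT1 the match is TTTCCCGC read on the other strand. A match says only that the letters are there, and E2F binding was not measured.

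The CHR letters TTTGAA or TTCGAA, known from promoters of mitotic genes, gave a different split. They stood in 16 of 20 promoters of a 24-gene mitosis list (80.0%) and in 10.9% of the tested genes. Of the replication genes called lower, 2 of 30 held them (6.7%). The CCAAT letters stood in 18 of these 30, in 16 of the 20 mitotic promoters and in 37.0% of the tested genes.

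**Figure D3:**
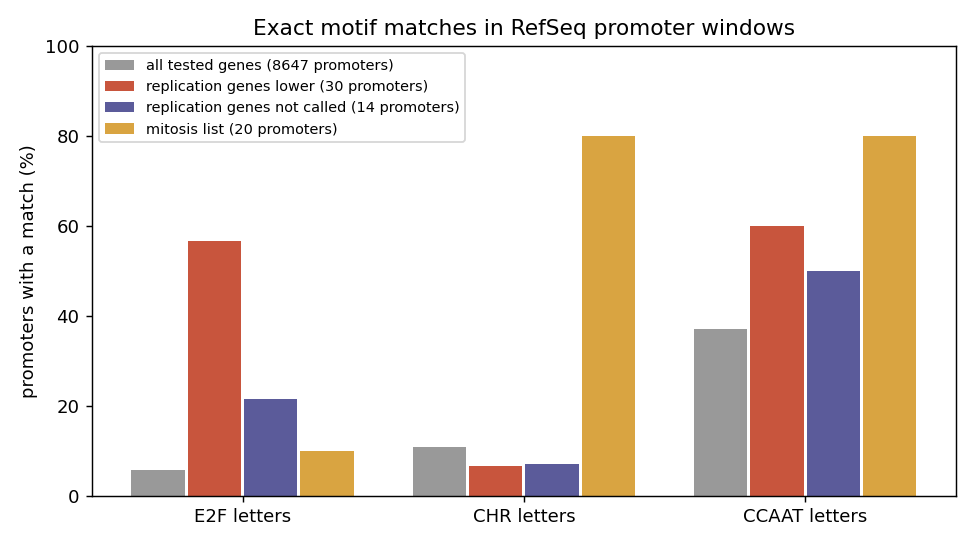
Share of RefSeq promoter windows (%) with an exact match to E2F, CHR or CCAAT letters on either strand, for all tested genes, replication genes called lower, replication genes not called, and the mitosis list. The E2F bar of the replication genes called lower is at 56.7%, and the CHR bar of the mitosis list is at 80.0%.

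Among licensing genes, the inhibitor fell while the loading factors did not pass the test. GMNN stood at 47.2, 48.6 and 34.3 FPKM in vehicle 1 to 3 and at 19.4, 15.02 and 13.9 FPKM in DON 1 to 3. Every DON library was below every vehicle library, at 37.2% of the vehicle mean (log2 fold change -1.37 ± 0.17 SE, limma adjusted p = 0.00123, n = 3 per group). CDT1, which geminin binds, was at 13.1 ± 0.842 FPKM in vehicle and 13.3 ± 1.24 in DON (mean ± SD). The 95% interval of its log2 fold change was -0.22 to 0.25. CDT1 has a GC content of 64.9%, against a median of 48.3% over tested genes, and with a correction for GC content it was called higher (0.34, adjusted p = 0.0197). CDC6, the ATPase that works with CDT1, was at 18.6 ± 2.54 FPKM in vehicle and 22.5 ± 1.97 in DON (interval -0.02 to 0.55). It was called higher without vehicle replicate 1 (adjusted p = 0.0487) and with a term for the split of the libraries described at the end (0.0438). The ratio of GMNN to CDT1 was 3.41, 3.66 and 2.82 in the vehicle libraries and 1.32, 1.22 and 1.08 in the DON libraries.

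The 6 ORC subunits went both ways. ORC6, the smallest subunit, fell from 22.2 ± 2.62 to 16.1 ± 1.16 FPKM (log2 fold change -0.44, limma adjusted p = 0.0203). ORC5, a core subunit of the ring, stood at 8.74, 12.05 and 14.7 FPKM in vehicle and at 17.2, 17.5 and 18.99 FPKM in DON. It was called higher (0.58 ± 0.17 SE, limma adjusted p = 0.0344), with vehicle 1 the lowest library. ORC2, ORC3, ORC4 and ORC1 were not called, with 95% intervals of -0.30 to 0.12, -0.03 to 0.93, -0.02 to 0.48 and -0.89 to -0.04. ORC1, the subunit whose protein rises and falls with the cycle, had the lowest level of the complex, at 2.71 ± 0.747 FPKM in vehicle and 1.67 ± 0.318 in DON. Leaving out vehicle 1, vehicle 2, DON 2 or DON 3 ended the calls of both ORC5 (adjusted p between 0.0514 and 0.0961) and ORC6 (between 0.0521 and 0.0641). That of ORC5 was also lost without DON 1 (0.0526). ORC1 was called lower without vehicle replicate 1 (adjusted p = 0.0225), and ORC3 higher without DON replicate 1 (adjusted p = 0.0165). Without vehicle 2, DON 2 or DON 3, 1 licensing gene was called lower.

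All 6 subunits of the MCM ring fell, the motor that is loaded at licensing and unwinds DNA in S phase. MCM6 fell most, from 25.3, 22.6 and 21.9 FPKM in vehicle to 9.001, 9.62 and 8.53 FPKM in DON. No library of one group came near the other (log2 fold change -1.27 ± 0.09 SE, limma adjusted p = 0.000152). MCM7, the subunit with the highest level, stood at 62.8, 63.5 and 52.1 FPKM in vehicle and at 39.5, 37.1 and 34.3 FPKM in DON. Its groups did not overlap (-0.67 ± 0.11 SE, limma adjusted p = 0.00332). MCM2, MCM3, MCM4 and MCM5 were at 57.9%, 53.7%, 63.5% and 65.5% of their vehicle means. Leaving out vehicle 1, vehicle 2, DON 2 or DON 3 ended the call of MCM5 (adjusted p between 0.0651 and 0.0833). Summed over the 6 subunits, MCM levels were 172, 173 and 153 FPKM in vehicle and 103, 95.3 and 88.8 FPKM in DON. The ORC subunits summed to 76.1, 77.8 and 84.6 FPKM and to 75.5, 85.7 and 90.9 FPKM. The ratio of the sums went from 2.09 ± 0.251 to 1.149 ± 0.193.

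The partners that turn the ring into the active helicase fell too, with 1 exception. CDC45, which joins the ring when an origin fires, went from 9.85 ± 0.954 to 5.96 ± 0.0828 FPKM (log2 fold change -0.64, limma adjusted p = 0.00281). The GINS complex has 4 subunits that bind each other in equal number. GINS2 stood at 18.5, 11.9 and 12.6 FPKM in vehicle and at 4.59, 4.38 and 3.76 FPKM in DON, with vehicle 1 well above the other two. Its change was the largest of the helicase genes (-1.53 ± 0.17 SE, limma adjusted p = 0.000751). GINS1 and GINS3 were at 36.2% and 41.5% of their vehicle means. GINS4 was at 3.53, 4.10 and 5.26 FPKM in vehicle and at 4.37, 3.94 and 4.04 FPKM in DON, so its groups overlapped (95% interval -0.36 to 0.29). The ratio of GINS2 to GINS4 was 5.26, 2.90 and 2.40 in vehicle and 1.05, 1.11 and 0.931 in DON.

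In the group of CDC7, DBF4, MCM10 and MCM8, MCM10 had the largest change. MCM10, which helps start unwinding, stood at 3.80, 3.64 and 4.50 FPKM in vehicle and at 0.830, 0.963 and 0.983 FPKM in DON. The DON mean was 23.3% of the vehicle mean, a 4.30-fold difference (log2 fold change -1.37 ± 0.12 SE, limma adjusted p = 0.000267). CDC7, the firing kinase, stood at 4.03, 5.37 and 6.32 FPKM in vehicle and at 2.42, 2.64 and 2.60 FPKM in DON. It was called lower (-0.80 ± 0.15 SE, limma adjusted p = 0.00645). Its activator DBF4 stood at 15.2, 13.8 and 20.7 FPKM in vehicle and at 6.64, 11.3 and 11.9 FPKM in DON. Its groups did not overlap, but it missed the threshold (-0.70 ± 0.23 SE, limma adjusted p = 0.0506). It passed as lower with a filter at 5 FPKM (0.0481), with the GC correction (0.0128) and with the split term (0.000193).

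MCM8, which is no part of the ring and works with MCM9 in recombination, was among the 4 members called higher. It stood at 10.4, 11.2 and 9.76 FPKM in vehicle and at 13.8, 13.2 and 13.0 FPKM in DON (log2 fold change 0.32 ± 0.09 SE, limma adjusted p = 0.0248). The call was lost without vehicle 1, vehicle 3 or any DON library (adjusted p of 0.052 to 0.0867) and with the GC correction (0.102). MCM9, named after its values were seen, fell from 5.98 ± 0.693 to 2.83 ± 0.146 FPKM (-0.86, limma adjusted p = 0.00123). The ratio of MCM8 to MCM9 was 1.84, 2.04 and 1.44 in vehicle and 5.12, 4.68 and 4.37 in DON.

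**Figure D4:**
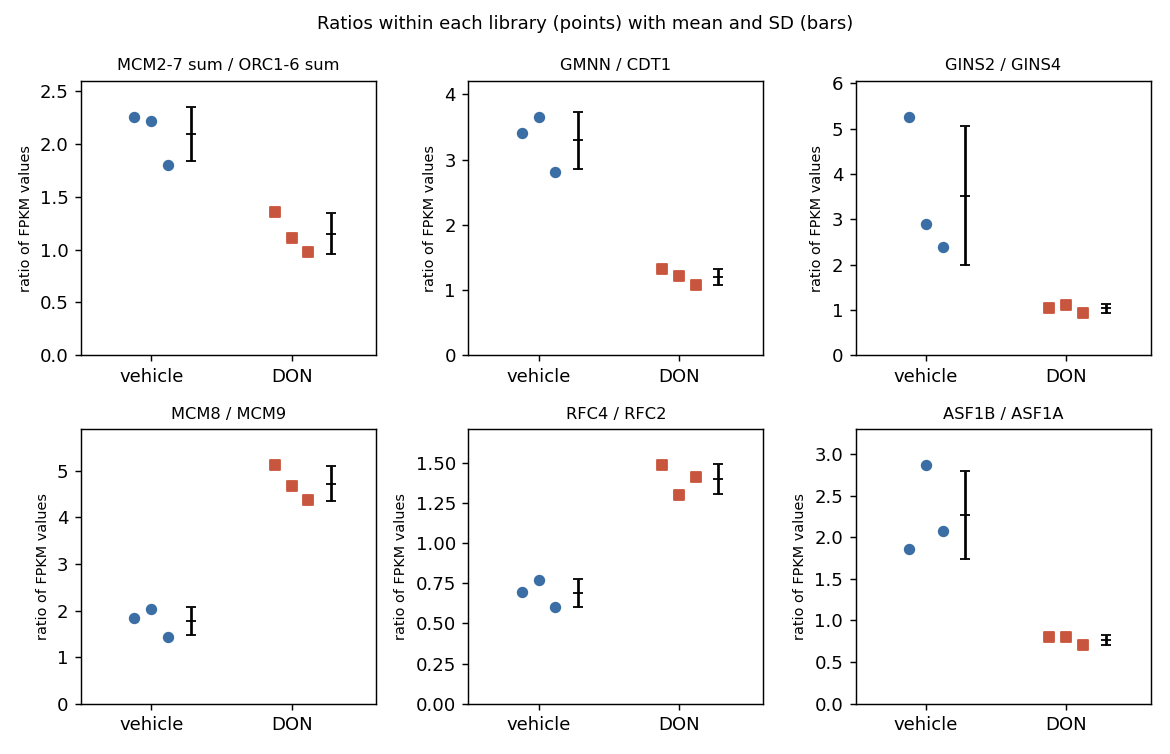
Ratios of FPKM values within each library for the MCM and ORC sums and for 5 gene pairs (points), with mean and SD (black bars, n = 3). Pairs were chosen after the values were seen, and in every panel the vehicle and DON points lie apart.

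In the polymerases, 3 catalytic subunits and several accessory subunits fell. POLE, the catalytic subunit of the leading-strand polymerase epsilon, stood at 10.6, 10.9 and 9.69 FPKM in vehicle and at 6.05, 5.11 and 5.05 FPKM in DON. Its change was the largest of this group (log2 fold change -0.84 ± 0.10 SE, limma adjusted p = 0.0011). POLD2, the second subunit of polymerase delta and the most abundant transcript of this group, stood at 81.2, 90.9 and 72.6 FPKM in vehicle and at 52.6, 43.3 and 42.1 FPKM in DON. Its DON mean was 56.4% of the vehicle mean (-0.81 ± 0.12 SE, limma adjusted p = 0.00271). POLD1, the catalytic subunit of polymerase delta, which copies the lagging strand, fell from 13.2 ± 1.54 to 7.23 ± 1.89 FPKM. With a GC content of 65.0%, its log2 fold change went from -0.81 to -0.49 with the GC correction, where the call held (adjusted p = 0.00377), whereas with no filter it was lost (0.0736). POLA1, the catalytic subunit of polymerase alpha, which extends primers, went from 3.48 ± 0.0387 to 2.66 ± 0.0405 FPKM (limma adjusted p = 0.0429). This call was lost when any 1 library was left out, at adjusted p of 0.065 to 0.13, with quantile normalization (0.109) and with no filter (0.0634).

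POLA2, the regulatory subunit of polymerase alpha, and POLE2, the second subunit of polymerase epsilon, were at 52.8% and 59.7% of their vehicle means. Leaving out vehicle 1, vehicle 3, DON 1 or DON 2 ended the call of POLE2 (adjusted p of 0.0573 to 0.0828). The primase subunits PRIM1 and PRIM2, which lay down RNA primers, were not called, with 95% intervals of -0.76 to -0.01 and -0.43 to 0.67. POLD3 and POLE3, accessory subunits, were not called either (-0.60 to 0.02 and -0.07 to 0.34). POLE3 also belongs to chromatin remodelling complexes. PRIM1 was called lower without vehicle replicate 2 (adjusted p = 0.037), with the GC correction (0.0244) and with the split term (0.0194). POLD3 was called lower with the GC correction (0.0315) and the split term (0.0137).

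The clamp and its loader parted. PCNA, the ring that tethers polymerases to DNA, had the highest level of all members, at 183, 158 and 167 FPKM in vehicle and 59.97, 66.1 and 64.2 in DON. The DON mean was 37.5% of the vehicle mean, and the groups lay far apart (log2 fold change -1.40 ± 0.09 SE, limma adjusted p = 9.72e-05). RFC4, a small subunit of the loader that opens the ring, rose instead. It stood at 19.7, 24.3 and 19.03 FPKM in vehicle and at 45.6, 40.7 and 41.2 FPKM in DON, a 2.02-fold rise (0.99 ± 0.11 SE, limma adjusted p = 0.00083). RFC1, the large subunit, rose from 11.9, 12.8 and 13.3 FPKM to 18.2, 20.0 and 20.1 FPKM (0.58 ± 0.09 SE, limma adjusted p = 0.00255). The calls of RFC4 and RFC1 held in all alternatives that were run.

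The 3 other small subunits of the loader did not rise. RFC2 was at 30.5 ± 1.91 FPKM in vehicle and 30.4 ± 1.11 in DON (95% interval of the log2 fold change -0.20 to 0.19). RFC3 and RFC5 were called lower, at 76.7% and 66.8% of their vehicle means. Both calls were lost without vehicle 1, vehicle 3, DON 1 or DON 2 (adjusted p of 0.0556 to 0.0803 for RFC3 and 0.0555 to 0.069 for RFC5), and that of RFC3 also without DON 3 (0.0519). Without any 1 of vehicle 1, vehicle 3, DON 1 or DON 2, 1 gene of the clamp and loader group was called lower. The ratio of RFC4 to RFC2 was 0.697, 0.772 and 0.601 in vehicle and 1.49, 1.30 and 1.41 in DON. RFC4 shares 0.7% of its annotated exonic bases with EIF4A2 on the opposite strand, which rose from 163 ± 17.4 to 212 ± 15.03 FPKM (1.30-fold). Whether that overlap bears on the value of RFC4 was not tested.

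The 3 subunits of RPA, which coats single-stranded DNA, were not called. RPA3, the smallest subunit, stood at 54.7, 55.2 and 41.2 FPKM in vehicle and at 55.0, 52.4 and 39.8 FPKM in DON. Vehicle 3 and DON 3 were the low libraries, and the groups overlapped (95% interval of the log2 fold change -0.43 to 0.35). For RPA1 and RPA2 the intervals were -0.52 to 0.04 and -0.21 to 0.42. LIG1, which seals Okazaki fragments, stood at 13.4, 14.8 and 11.7 FPKM in vehicle and at 10.3, 6.69 and 6.11 FPKM in DON. DON 1 was the highest of its group, and the call (-0.74 ± 0.19 SE, limma adjusted p = 0.0195) ended when vehicle 1, vehicle 2, DON 2 or DON 3 was left out (0.0573 to 0.0755). FEN1, the nuclease that trims the flaps of these fragments, stood at 33.8, 37.3 and 25.7 FPKM in vehicle and at 28.9, 21.0 and 17.3 FPKM in DON. Its groups overlapped through DON 1 and vehicle 3, and it was not called (limma adjusted p = 0.0864). It was called lower without vehicle 3 (0.0444), without DON 1 (0.0202) and with the split term (0.017). In this group 0 genes were called lower without vehicle 1, vehicle 2, DON 2 or DON 3, and 2 without vehicle 3 or DON 1.

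Among fork protection genes, CLSPN stood apart in size. CLSPN encodes claspin, which carries the checkpoint signal from ATR to CHK1 and supports fork speed. It stood at 2.73, 3.54 and 3.48 FPKM in vehicle and at 0.547, 0.5299 and 0.457 FPKM in DON. By ratio of means this was the largest difference among the 54 genes, 6.35-fold (log2 fold change -1.49 ± 0.13 SE, limma adjusted p = 0.000265). CLSPN passed the filter through the vehicle libraries alone. The scale understates such a change because DON values lie below the added 1. TIMELESS, claspin's partner at the fork, stood at 14.6, 14.5 and 14.2 FPKM in vehicle and at 10.8, 11.1 and 9.53 FPKM in DON (-0.43 ± 0.09 SE, limma adjusted p = 0.00868). WDHD1, which links the helicase to polymerase alpha, was at 72.5% of its vehicle mean (limma adjusted p = 0.0255). Its call was lost without any 1 library other than vehicle 3 (0.0538 to 0.0774) and with quantile normalization (0.0537). TIPIN, which binds TIMELESS, went from 5.87 ± 0.866 to 3.95 ± 1.29 FPKM and was not called (0.0897), but was called lower without DON 2 (0.0317).

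All 5 genes of chromatin assembly and maintenance methylation fell. UHRF1, which reads hemimethylated DNA behind the fork, stood at 5.15, 5.20 and 4.19 FPKM in vehicle and at 1.07, 0.715 and 0.723 FPKM in DON. On the log2(FPKM + 1) scale it had the largest fitted change of the 54 genes (log2 fold change -1.67 ± 0.13 SE, limma adjusted p = 0.000215). With a pseudocount of 0.1 the change of CLSPN was larger (-2.45 against -2.41 for UHRF1). DNMT1, the methyltransferase that UHRF1 recruits, stood at 13.4, 13.5 and 12.2 FPKM in vehicle and at 6.59, 5.57 and 5.49 FPKM in DON. Its DON mean was 45.2% of the vehicle mean (-1.03 ± 0.10 SE, limma adjusted p = 0.000439). CHAF1A and CHAF1B, the large subunits of the histone chaperone CAF-1, were at 55.1% and 51.2% of their vehicle means. With no filter both calls were lost (adjusted p = 0.0683 and 0.107). The call of CHAF1B was also lost without vehicle 2, DON 2 or DON 3 (0.0521 to 0.0604).

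ASF1B, a chaperone that hands histones H3 and H4 to CAF-1, stood at 16.7, 19.9 and 20.7 FPKM in vehicle and at 8.83, 11.02 and 10.1 FPKM in DON (log2 fold change -0.87 ± 0.12 SE, limma adjusted p = 0.00175). Its paralog ASF1A, named after its values were seen, rose from 8.62 ± 1.54 to 13.0 ± 1.73 FPKM (0.55, limma adjusted p = 0.0269). The ratio of ASF1B to ASF1A was 1.86, 2.87 and 2.07 in vehicle and 0.797, 0.803 and 0.701 in DON.

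Replication genes outside the 54 were called in both directions. Of 38 such genes, 11 were called lower and 2 higher, with a median log2 fold change of -0.17. Over all tested genes 20.6% were called lower and 18.3% higher. The largest changes were those of ESCO2, which joins sister chromatids during S phase (9.42 ± 1.35 to 1.63 ± 0.150 FPKM), and TICRR, which brings CDC45 to origins (1.82 ± 0.332 to 0.304 ± 0.0364 FPKM). TICRR was under 1 FPKM in every DON library and passed the filter through the vehicle libraries alone. RECQL4, a helicase that acts at origin firing, and DNA2, a nuclease of Okazaki fragments, were at 47.5% and 43.2% of their vehicle means.

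Regulators of S phase entry were called lower in 15 of 28 tested genes and higher in 3, with a median log2 fold change of -0.28. The shares over all tested genes were 20.6% lower and 18.3% higher. CCNA2 (cyclin A2) went from 26.9 ± 8.12 to 6.09 ± 0.488 FPKM and CCNE1 (cyclin E1) from 4.74 ± 1.25 to 1.503 ± 0.225 FPKM. E2F1, an activator of replication genes, went from 15.02 ± 0.762 to 12.3 ± 0.656 FPKM (limma adjusted p = 0.0423). E2F8, a repressor of the family, went from 2.95 ± 0.980 to 0.526 ± 0.200 FPKM. Being under 1 FPKM in every DON library, E2F8 passed the filter through the vehicle libraries alone. Of the inhibitors of cyclin-dependent kinases, CDKN2C was at 38.4% of its vehicle mean. CDKN1A stood instead at 11.1, 13.3 and 11.2 FPKM in vehicle and at 21.3, 21.5 and 20.8 FPKM in DON. CDKN1B was also called higher, from 42.3 ± 3.38 to 57.6 ± 2.51 FPKM (limma adjusted p = 0.00896), and CDKN1C was not called.

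Mitotic genes fell in the same libraries. Of 24 genes in the mitosis list 24 were called lower, with a median log2 fold change of -1.72, and the list's summed level was 957 to 1038 FPKM in vehicle and 270 to 281 FPKM in DON. HMMR, KIF20A, TOP2A and MKI67 were at 16.8%, 12.4%, 17.6% and 16.3% of their vehicle means. The difference from the replication genes was not tested. A list of 15 housekeeping genes had 8 lower and 2 higher, with a median of -0.38. The 54 members had 32 lower and 4 higher, with a median of -0.56. Among all tested genes 20.6% were called lower and 18.3% higher.

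Relative depth, from steps between the lowest values, was 1.26 to 1.70 times that of vehicle 1, the shallowest library, and absolute depth is unknown. Of 8 epithelial markers without failed values 8 were expressed, with EPCAM at 1090.0 ± 109.5 FPKM in vehicle, and 0 of 5 endothelial markers reached 1 FPKM. The leukocyte markers PTPRC, CD3E and NKG7 stayed at or below 0.258 FPKM and the fibroblast markers COL1A1 and PDGFRA at or below 0.0766 FPKM. Others on these lists were higher. CD68, also a leukocyte marker, averaged 22.6 FPKM without DON and 32.8 FPKM with it, and was not called. MS4A1 reached 1.02 FPKM in vehicle 1 only. Of 5 neuronal markers, 1 passed the filter, TUBB3, with means of 3.89 (vehicle) and 3.93 FPKM (DON). The summed leukocyte list was 233 to 357 FPKM in vehicle and 102 to 152 FPKM in DON, most of it LYZ, with 2 of 8 markers at 1 FPKM or more in at least 3 libraries. The summed fibroblast list was 141 to 172 FPKM and 88.8 to 124 FPKM, nearly all of it LUM, with 1 of 7 at that level. The part of LYZ, CD68, LUM and TUBB3 in the results was not tested. The libraries also varied along a second axis that crosses the groups. The second principal component had 1 sign in vehicle 1, vehicle 2 and DON 1 and the other in vehicle 3, DON 2 and DON 3. Across genes, Spearman correlations of deviations from the group mean with GC content were 0.228, 0.303 and 0.505 in the former libraries. In the latter they were -0.401, -0.417 and -0.41. The source of this axis was not tested. The median log2 fold change of the 54 members was -0.56 within the former 3 libraries and -0.51 within the latter 3.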

How the data were processed

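RNA was measured in 3 vehicle and 3 DON libraries. Poly(A) RNA was selected, directional libraries were made and single reads of 75 bp were sequenced, per the labels' protocols. The authors deposited 1 table of FPKM values with 1 row per gene symbol. The submitters' processing notes name STAR and the build hg19. The program that gave the FPKM, the annotation and any strand setting: not given in the sources used here. In the table the lowest deposited value was 0.01, and 41 rows with a failure mark, none of them a member, were left out. Columns named control were taken as vehicle.

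The fit of DON against vehicle used limma 3.58.1 (R 4.3.3) on log2(FPKM + 1) of the deposited values, with moderated variances and an intensity trend, for genes at 1 FPKM or more in at least 3 libraries. Tests were two-sided with Benjamini-Hochberg adjustment over all tested genes. The members and lists were chosen with earlier results of these data known. Full values are given for the 2 called members with the largest change in each of 8 functional groups, every member called higher and the member with the highest mean. Those of MCM7, GINS4, DBF4, RPA3, FEN1 and ASF1B are given outside this rule. From 3 lists of other cell cycle genes the text names the 4 largest called changes, with CDKN1A, E2F1 and CCNE1. From the same lists, MCM9, ASF1A, CDKN1B and CDKN1C were named after their values were seen. Gene pairs in ratios were chosen after the values were seen. GC content came from the longest GENCODE v29 transcript, for 95% of tested genes. In that annotation 9 members share at least 5% of their exonic bases with a gene on the opposite strand, MCM2 (23.6%), GINS4 (23.6%), GINS3 (10.9%), RFC5 (10.65%), MCM7 (8.94%), FEN1 (6.7%), ORC4 (6.58%), PRIM1 (5.42%) and CLSPN (5.17%), and 4 with one on the same strand, POLA2 (35.1%), TIPIN (21.0%), PRIM1 (16.2%) and POLD1 (8.64%). These values are less certain. The fit was tested on simulated data. Python 3.11.15, pandas 2.3.3, numpy 2.4.6 and matplotlib 3.10.9 were used.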

Additional observations from a re-analysis of the deposited data

How the results depend on the processing

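Of 36 called members, 18 kept their call in all 15 alternatives, and 5 others (GINS3, CDC7, MCM10, CLSPN and UHRF1) in all but the filter at 5 FPKM, which did not test them. Of 799 values for single members, 698 kept direction and call, 65 lost a call and 21 gained one. With no filter (26187 genes tested) 21 members were called lower and 2942 genes in all, with 1 licensing gene, 3 polymerase genes, 1 clamp or loader gene, 0 of the RPA, FEN1 and LIG1 group and 3 chromatin genes. With a filter at 5 FPKM, which left 43 members, the median log2 fold change was -0.52, and 1 firing gene, 1 fork protection gene and 3 chromatin genes were called lower. CDC7, MCM10, CLSPN, WDHD1, UHRF1 and CHAF1B were not tested there, and no tested gene of these groups lost its call. A pseudocount of 0.1 gave a median of -0.63. Over single libraries left out, the median ran from -0.46 to -0.62, members lower from 24 to 29, members higher from 2 to 3, all called genes from 2697 (without DON 2) to 4656, licensing genes lower from 1 to 2, clamp or loader genes from 1 to 3 and the RPA, FEN1 and LIG1 group from 0 to 2.

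The GC correction, chosen after seeing the data, gave 35 members lower and a median of -0.51. The split term, likewise chosen, gave 36 members lower, and 2 in the RPA, FEN1 and LIG1 group. It was the sign of the second principal component of the same expression values, and 6031 genes in all were called with it. Calls gained with it are therefore not independent support. Same-numbered libraries of the groups did not deviate together in all pairs (correlations 0.254, -0.184 and 0.502), so the numbers were not taken as pairs. With a replicate block 35 members were called lower, 4 higher and 5414 genes in all, with 2 lower in the RPA, FEN1 and LIG1 group. Under the block POLA1 was not called (adjusted p = 0.0728), and DBF4 (0.0134), PRIM1 (0.0345), FEN1 (0.0159) and TIPIN (0.0215) were called lower. Signs turned only for genes not called. RFC2 was at 0.006 with median-of-ratios scaling, 0.062 with the GC correction and above 0 without vehicle 2, vehicle 3 or DON 3 (-0.056 to 0.024 over single libraries left out). GINS4 was at 0.048 with quantile normalization and 0.089 without vehicle 3 (-0.145 to 0.089). PRIM2 was at -0.137 without vehicle 1 (-0.137 to 0.353) and -0.017 with the split term. RPA3 was at 0.073 with the split term and above 0 without vehicle 1, vehicle 2 or DON 3 (-0.174 to 0.102). CDT1 was at -0.029 without vehicle 3 and -0.05 without DON 1 (-0.05 to 0.068). The causes were not tested. FPKM holds no counts, so counting error is unknown.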
